A study of Arabidopsis thaliana with 18 samples.

Results

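The response of the spx1 spx2 double mutant of Arabidopsis thaliana to growth without inorganic phosphate (Pi) was read as the difference between 3 arrays of mutant seedlings grown without Pi and 3 arrays of mutant seedlings grown in complete medium. These 6 arrays are 6 of the 18 in the series, and the comparison took in 22746 probe sets, which is every probe set of the array other than its 64 controls. Seedlings were 7 days old and of the Col-0 background. Mutant seedlings are labelled spx1,spx2, so every mutant group shares the double mutation, and no source used here names the alleles. Mutant groups used here had been grown without Pi, in complete medium, or without Pi followed by 4 h on resupplied Pi. Wild-type (WT) Col-0 seedlings grown without Pi and in complete medium, 3 arrays each, served to show where the mutant response differs. Each array was made from total RNA of seedlings, labelled as 1 of 3 biological replicates, and the labels do not say whether the replicates came from separate cultures, so p-values measure the spread between these samples.

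SPX-domain proteins bind inositol pyrophosphates, which are plentiful in plant cells with ample Pi, and in that state SPX1 and SPX2 hold the MYB transcription factor PHR1 away from its target promoters. When Pi runs short the inositol pyrophosphates fall, PHR1 is released, and it switches on genes for Pi uptake, Pi scavenging from organic compounds and the replacement of phospholipids by other lipids. A mutant without SPX1 and SPX2 is therefore known for raised levels of several PHR1 targets while Pi is still ample. SPX1 and SPX2 are not among the genes named for these probe sets, so the loss of their transcripts was not checked here.

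Values are RMA signals on the log2 scale, so that a difference of 1 is a doubling of signal. RMA is a summary of the probes of 1 probe set after background correction and quantile normalization. Within the mutant, the lowest correlation between 2 arrays of a group was 0.9917 without Pi and 0.9901 in complete medium, over all probe sets. In 3 of the 18 arrays the polyadenylated spike-in control dap read under 6. These were mutant without Pi, replicate 1, at 4.993 against 8.783 to 9.250 in the other arrays of that group, mutant complete, replicate 2, at 5.211 against 8.629 to 8.998 in its group, and replicate 3 of WT in complete medium. The ubiquitin control read higher at its 3 prime than at its 5 prime end, by 0.958 to 1.090 in mutant arrays without Pi and by 1.257 to 1.345 in mutant arrays in complete medium. The part of this gap in the results below was not tested.

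Growth without Pi changed a large share of the mutant transcriptome. At an adjusted p under 0.05 in limma, 10019 probe sets changed, which is 44% of those tested. Of them 4026 rose (17.7%) and 5993 fell (26.3%). Falls were more frequent, by an amount that depended on the scaling: with each array centred on its median, 4721 rose and 4957 fell. Without that centring, the large changes were mostly rises: 1442 probe sets rose at least 2-fold (6.34%) and 1218 fell at least 2-fold (5.35%). Beyond 2 on the log2 scale there were 496 rises and 125 falls, beyond 3 there were 179 rises and 18 falls, and beyond 5 there were 29 rises and 1 fall. Over all probe sets the change had a median of -0.03, a 1% quantile of -1.73 and a 99% quantile of 2.76. The median standard error (SE) of a change was 0.131, and the median standard deviation (SD) over probe sets was 0.145 among mutant arrays without Pi and 0.164 among mutant arrays in complete medium.

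Low-Pi marker genes and genes of rapid stress responses made up the largest rises. AT5G17340, known for its induction by low Pi, changed most among named genes. Its signal was 11.24, 11.08 and 11.23 without Pi and 3.53, 3.90 and 3.69 in complete medium, a change of 7.48 ± 0.22 (SE) or 178-fold (limma adjusted p = 1.13e-14). AT4G27654 read 10.94, 11.19 and 10.74 without Pi, against 3.53, 3.75 and 3.90 in complete medium (7.23 ± 0.19, 150-fold). OCT1, a membrane carrier of organic cations, read 11.72, 11.88 and 12.08 without Pi, against 4.94, 5.37 and 5.24 in complete medium (6.71 ± 0.15, 104-fold). In each of these 3 genes the arrays of a group lay within 0.5 of each other, far from the other group. AT2G17660, of the RIN4 family of defence proteins, read 10.39, 10.61 and 10.34 without Pi and 3.88, 4.43 and 3.71 in complete medium (6.44 ± 0.19, 86.9-fold).

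AT5G52020, an AP2/ERF transcription factor gene, read 10.93, 10.74 and 10.32 without Pi and 5.51, 4.92 and 3.92 in complete medium (5.88 ± 0.29). Its complete-medium arrays spread widely, with replicate 1 highest and replicate 3 lowest. CML37, a calmodulin-like calcium sensor, read 9.41, 9.37 and 9.15 without Pi and 3.94, 3.84 and 3.84 in complete medium (5.44 ± 0.18). AT4G29780 read 12.02, 12.53 and 12.34 without Pi, against 6.82, 6.98 and 7.02 in complete medium (5.36 ± 0.15). AT3G02840, an armadillo-repeat protein gene, rose by 5.71 ± 0.18, the AP2/ERF gene AT1G19210 by 5.23 ± 0.13, and AT5G38700 by 5.26 ± 0.18. AT3G01830, a calmodulin-like gene, read 11.16, 11.48 and 11.35 without Pi and 6.68, 6.06 and 5.57 in complete medium (5.22 ± 0.26). The remaining named rises were AT4G27652 (5.10), AT5G09570 (5.08), AT3G43110 (5.05) and AT1G08310 (5.04).

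These 15 genes are the largest rises among probe sets with 1 named gene whose arrays did not overlap. Over all probe sets, 20.3% had all mutant arrays without Pi above all those in complete medium, and 16.5% also passed the test, which is the background of that choice. In 4 of the 15 (AT5G17340, AT4G27654, AT2G17660 and CML37) the complete-medium mean lay below 4.397, which is the smallest lower quartile of any array and a range where RMA compresses differences, so their changes are lower bounds. A further 2 probe sets, for which no gene is named here, rose as far, by 7.80 ± 0.25 and 7.27 ± 0.20. After 4 h of resupply, mutant arrays lay below all mutant arrays without Pi in 15 of the 15 genes, with mean differences of resupplied minus starved mutant seedlings from -5.73 to -0.28. The arrays without Pi in this comparison are those that chose the genes, so nothing is read from the count, and over all probe sets 24.4% had every resupplied mutant array below every mutant array without Pi. The smallest of these was AT5G09570, a CHCH-domain mitochondrial gene known for low-Pi induction, which read 10.32, 10.55 and 10.40 after resupply and 10.77, 10.77 and 10.56 without Pi.

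**Figure D1:**
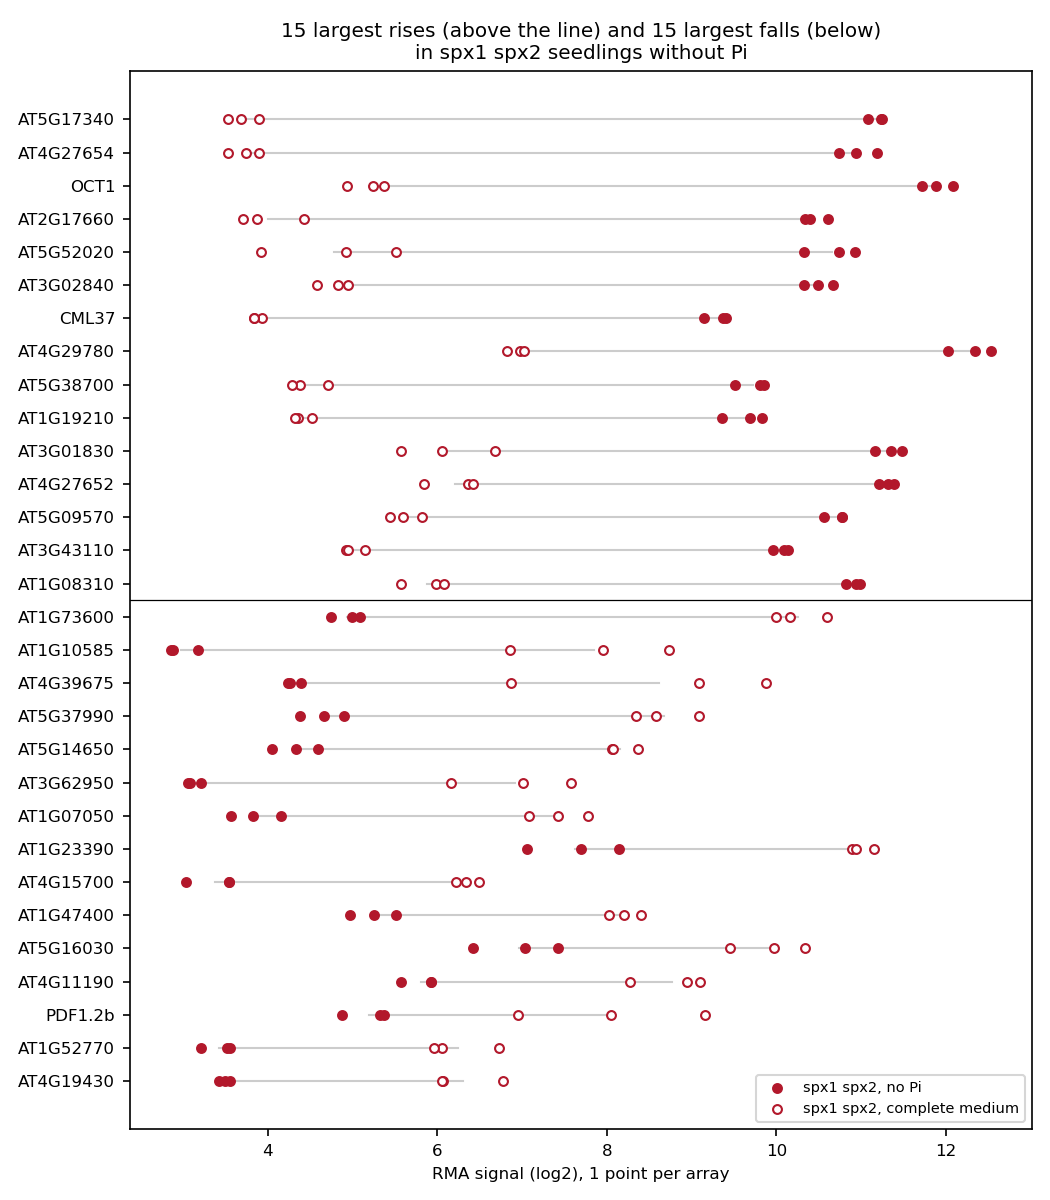
Signal (log2, horizontal axis) of the 15 largest named rises, above the line, and the 15 largest named falls, below it, with 1 point per mutant array: filled without Pi, open in complete medium; the grey line joins the means. Filled and open points stay apart in each gene, and the open points of AT4G39675 and PDF1.2b are the most spread.

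The largest fall was of AT1G73600, which encodes a phosphoethanolamine methyltransferase of the route to phosphatidylcholine, a phospholipid. It read 4.75, 4.99 and 5.09 without Pi and 10.60, 9.99 and 10.16 in complete medium, a change of -5.31 ± 0.21 (limma adjusted p = 3.77e-13) or 39.6-fold lower. It was the only probe set that fell by over 5. AT1G10585, a bHLH transcription factor gene, read 3.18, 2.86 and 2.89 without Pi and 8.73, 7.95 and 6.86 in complete medium (-4.87 ± 0.30). AT4G39675, a gene known for induction by low oxygen, read 4.27, 4.24 and 4.39 without Pi and 6.87, 9.09 and 9.88 in complete medium (-4.31 ± 0.53). Its complete-medium arrays were the most spread of the 15 falls, and without replicate 3 of that group the change was -3.68 and without replicate 1 it was -5.18.

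AT5G37990, of the SABATH family of methyltransferases, fell by 4.02 ± 0.21 on the log2 scale, and AT5G14650, a polygalacturonase of pectin breakdown, by 3.84 ± 0.14. AT3G62950 and AT4G15700, which encode CC-type glutaredoxins, fell by 3.80 ± 0.24 and 2.97 ± 0.15. AT1G07050, a gene with a CCT motif, read 3.83, 3.57 and 4.16 without Pi and 7.42, 7.08 and 7.78 in complete medium (-3.58 ± 0.18). AT1G23390, a kelch F-box protein that takes part in the turnover of chalcone synthase, read 7.69, 7.06 and 8.14 without Pi and 11.15, 10.89 and 10.94 in complete medium (-3.36 ± 0.24). AT1G47400, an IRON MAN peptide of iron uptake signalling, read 5.51, 5.26 and 4.97 without Pi and 8.40, 8.20 and 8.03 in complete medium (-2.96 ± 0.22). The plant defensin PDF1.2b, read on a probe set that can bind several related transcripts, had 5.32, 5.37 and 4.88 without Pi and 6.95, 8.05 and 9.16 in complete medium (-2.86 ± 0.32).

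The other named falls were AT5G16030 (-2.96), the dirigent protein gene AT4G11190 (-2.96), the NPH3-family gene AT1G52770 (-2.82) and AT4G19430 (-2.80). Over all probe sets 28.6% had non-overlapping arrays in that direction, and 24.7% also passed the test. In 8 of the 15 the mean without Pi was under 4.397, so these falls are lower bounds. After 4 h of resupply, mutant arrays lay above all mutant arrays without Pi in 11 of the 15 genes, and over all probe sets in 27.4%. These genes too were chosen on the arrays without Pi, so nothing is read from that count. AT1G10585 returned furthest, to 8.52, 8.80 and 8.13 after resupply, while AT5G16030 read 5.65, 4.44 and 5.41 after resupply and 7.03, 6.42 and 7.43 without Pi. A further 2 probe sets with no gene named here fell by 4.36 ± 0.20 and 3.84 ± 0.15. Within the 15 arrays of usual spike-in signal, 30 of the 30 named changes passed again, and 9018 of all 10019 calls in the mutant. The named genes were chosen as large changes on these same arrays, so nothing is read from the 30 of 30.

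Genes of Pi nutrition were read through 20 loci with a named probe set. Of these 14 rose, 3 fell and the other 3 did not pass, and their median change was 1.56. Over all probe sets 17.7% rose, 26.3% fell and the median was -0.03. This list was added after the files were seen and holds AT5G17340 and AT1G73600, the leading named rise and fall. Its counts and median are therefore a description and no test. In WT 14 rose and 2 fell, with a median of 2.04 against -0.11 over all probe sets, where 20.4% rose and 28.1% fell. A test of the genotype difference (mutant change minus WT change) passed for 10 of the 20, lower in the mutant for 9 and higher for 1, against 7.74% and 4.41% of all probe sets. Without mutant complete replicate 1 it passed as lower for 5 and without mutant no Pi replicate 1 for 6.

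Scavenging enzymes held several of the larger rises. AT1G14220, a T2-type ribonuclease that frees Pi from RNA, read 10.20, 9.97 and 10.06 without Pi and 6.63, 6.60 and 6.50 in complete medium (3.50 ± 0.10). The neighbouring ribonuclease gene AT1G14210 did not pass (-0.08 ± 0.13). AT1G13750, a purple acid phosphatase gene, read 10.38, 10.58 and 10.69 without Pi and 8.09, 7.93 and 8.32 in complete medium (2.44 ± 0.12), and PAP20, of the same family, rose by 1.48 ± 0.14. A further purple acid phosphatase gene, AT1G25230, had a change of -0.37 ± 0.16 in the mutant, which did not pass (it passed at -0.58 without mutant complete replicate 1), and of -1.77 in WT (difference 1.40 ± 0.23, limma adjusted p = 0.000463). SAL2 and AT5G63990, which encode phosphatases of the SAL family, rose by 3.05 ± 0.12 and 0.86 ± 0.11.

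Among regulators, the 3 HHO-type MYB-like repressor genes AT3G25790, AT1G68670 and AT1G25550 rose by 1.67 ± 0.19, 1.43 ± 0.10 and 0.57 ± 0.12. These factors are known to link nitrate and Pi supply. WRKY6, a regulator of Pi export to the shoot, rose by 0.60 ± 0.16. LPR1 and LPR2, multicopper oxidases of the root tip response to low Pi, fell by 0.49 ± 0.15 and 0.58 ± 0.18 on the log2 scale. Neither passed without mutant complete replicate 1 (adjusted p = 0.0795 and 0.0643), and LPR2 did not pass without mutant no Pi replicate 1 either (adjusted p = 0.0545). In WT their changes were 0.24 and 0.26, which did not pass. PMEAMT, a relative of AT1G73600 on the route to phosphatidylcholine, did not pass (0.08 ± 0.14), and thus stood apart from AT1G73600 by over 5 on the log2 scale.

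The clearest shift of a low-Pi marker between genotypes was AT5G20790. It read 12.52, 12.60 and 12.83 in the mutant without Pi and 8.29, 7.91 and 8.29 in the mutant in complete medium, a change of 4.49 ± 0.16. The change in WT was 7.78, so the difference was -3.30 ± 0.23 (limma adjusted p = 2.75e-08). Without Pi both genotypes stood close together, at means of 12.65 in the mutant and 12.94 in WT, and in complete medium they stood apart, at 8.16 in the mutant and 5.16 in WT. AT2G04460, annotated as a pseudogene, showed the same arrangement, with means of 9.70 without Pi and 8.05 in complete medium in the mutant, and 9.57 and 4.93 in WT. Its change was 1.65 ± 0.14 in the mutant and 4.63 in WT. AT1G13750 stood at means of 8.11 in the mutant and 7.14 in WT in complete medium, and at 10.55 and 10.74 without Pi.

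**Figure D2:**
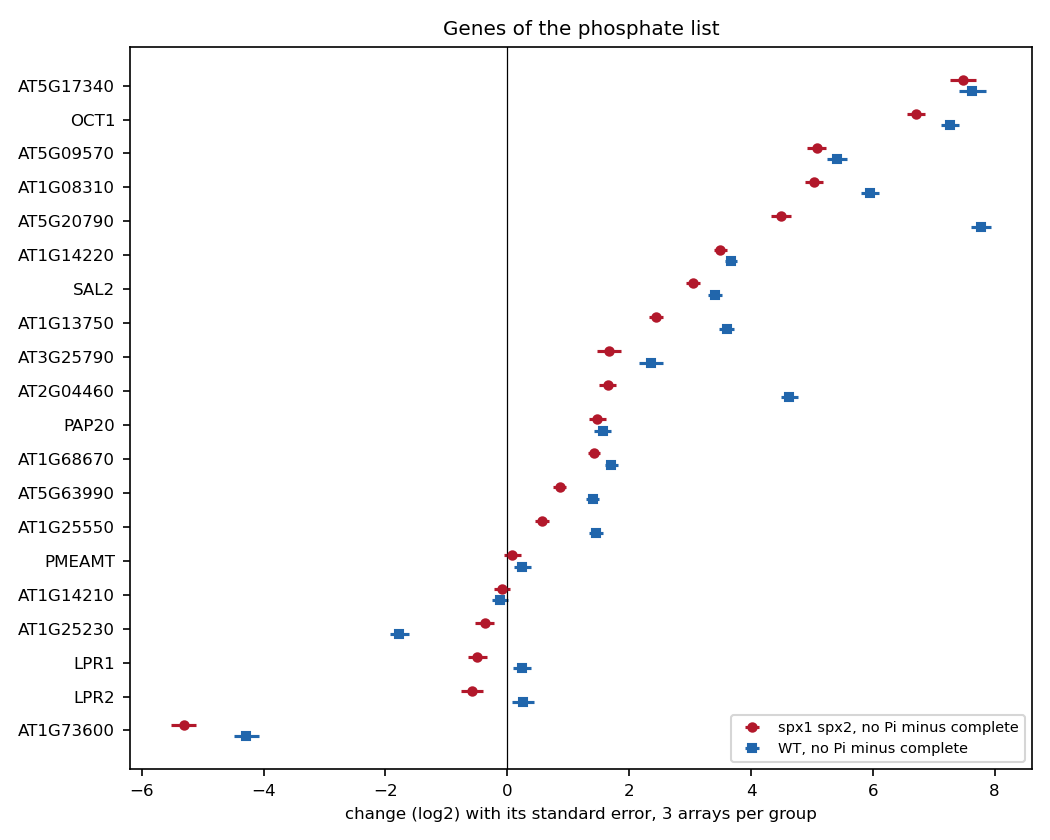
Change without Pi minus complete medium (log2, horizontal axis, bars 1 standard error) for the 20 genes of Pi nutrition, with the mutant as circles above WT as squares. AT5G20790, AT2G04460 and AT1G13750 have WT squares clearly to the right of the mutant circles, and AT1G25230 has its WT square to the left.

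Genes of rapid responses to wounding, touch and elicitors rose together in the mutant. Of 21 measured members of that list 19 rose and 1 fell, against 17.7% rises and 26.3% falls over all probe sets, with a median of 3.21. In WT 19 rose and 1 fell as well, against 20.4% and 28.1%, with a median of 3.11. The genotype difference passed for 3 of the 21, against 12.1% of all probe sets. This list was added after the files were seen and holds leading rises given above. Its counts therefore describe the list and test nothing. Beside the genes given above, AT4G27657 read 9.59, 9.36 and 9.34 without Pi and 4.56, 4.68 and 4.92 in complete medium (4.71 ± 0.15). AT3G57450 reached 12.99, 13.22 and 13.00 without Pi, against 10.81, 10.72 and 10.61 in complete medium (2.36 ± 0.09). The member that fell was AT1G72060 (-0.96 ± 0.23), and AT2G27830 did not pass (-0.11 ± 0.17). Several members also appear in the calcium list.

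Calmodulin-like genes, whose products bind calcium, were 8 in number, with 6 rises, 2 falls and a median of 1.92. Their shares of 75% and 25% compare with 17.7% rises and 26.3% falls over all probe sets. AT1G76640 read 9.63, 9.60 and 9.48 without Pi and 5.04, 5.09 and 4.21 in complete medium (4.79 ± 0.25). CML38 read 11.16, 11.36 and 11.45 without Pi and 7.05, 6.83 and 7.12 in complete medium (4.32 ± 0.18), and its rise exceeded the 2.98 of WT (difference 1.34 ± 0.25, limma adjusted p = 0.00166). CML30 and CML41 fell by 0.55 ± 0.13 and 0.50 ± 0.19 on the log2 scale, and CML41 did not pass with the replicate number as a block (limma adjusted p = 0.0523) or without mutant complete replicate 2 (0.099) or 3 (0.114) or mutant no Pi replicate 2 (0.131) or 3 (0.0988). Of 10 AP2/ERF transcription factor genes, a list added after the files were seen, 7 rose and 2 fell (70% and 20%), with a median of 2.77. ORA47, which activates jasmonate synthesis genes, rose by 4.21 ± 0.14 and AT1G22810 by 4.96 ± 0.22, while AT5G61590 and AT5G61890 fell by 1.52 ± 0.19 and 1.44 ± 0.22.

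STZ (also known as ZAT10), a zinc finger repressor induced by many stresses, read 12.53, 12.59 and 12.40 without Pi and 8.08, 8.47 and 8.37 in complete medium (4.20 ± 0.15). Its rise in WT was 5.33 (difference -1.13 ± 0.21, limma adjusted p = 0.00159). Of 13 U-box and RING ubiquitin ligase genes 7 rose and 1 fell (2 without mutant complete replicate 2), with a median of 0.41. Those shares of 53.8% and 7.69% compare with 17.7% and 26.3% of all probe sets. The related PUB22, PUB23, PUB24 and PUB19 carried the large changes, at 2.54, 2.89, 1.88 and 2.79, and the next largest rise in the list was 0.45. XERICO, a RING protein that acts in abscisic acid signalling, fell by 0.65 ± 0.13. Of 6 WRKY factors 3 rose and 1 fell (50% and 16.7%). WRKY22 rose by 2.31 ± 0.14 and WRKY53, linked to leaf senescence, by 0.92 ± 0.16 in the mutant and 2.55 in WT (difference -1.63 ± 0.22), while WRKY47 fell by 0.68 ± 0.13.

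CC-type glutaredoxins, small redox proteins that in Arabidopsis act with TGA transcription factors and in nitrate signalling, split into opposite directions. Of 16 measured members 4 rose and 10 fell, with a median of -0.70, and the counts in WT were 4 and 10. This list was added after the files were seen, and its mutant shares were 25% and 62.5%. Over all probe sets 17.7% rose and 26.3% fell in the mutant, and 20.4% rose and 28.1% fell in WT. GRX480 read 11.02, 11.00 and 10.88 without Pi and 7.40, 7.05 and 6.89 in complete medium (3.85 ± 0.19). AT1G03020 rose by 3.22 ± 0.14, AT2G30540 by 2.25 ± 0.12 and AT5G11930 by 1.19 ± 0.15. Those that fell furthest, after AT3G62950 and AT4G15700, were AT3G62930 (-2.19 ± 0.14), AT4G15680 (-2.06 ± 0.16) and AT4G15690 (-2.05 ± 0.16), several of which are neighbours on the chromosome. The floral members ROXY1 and ROXY2 did not pass, though ROXY1 passed as a fall without mutant no Pi replicate 1 (-0.55) or mutant complete replicate 2 (-0.54) and with the replicate number as a block (-0.38). Neighbouring members of this family are similar in sequence, so their probe sets may share signal, which was not tested.

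**Figure D3:**
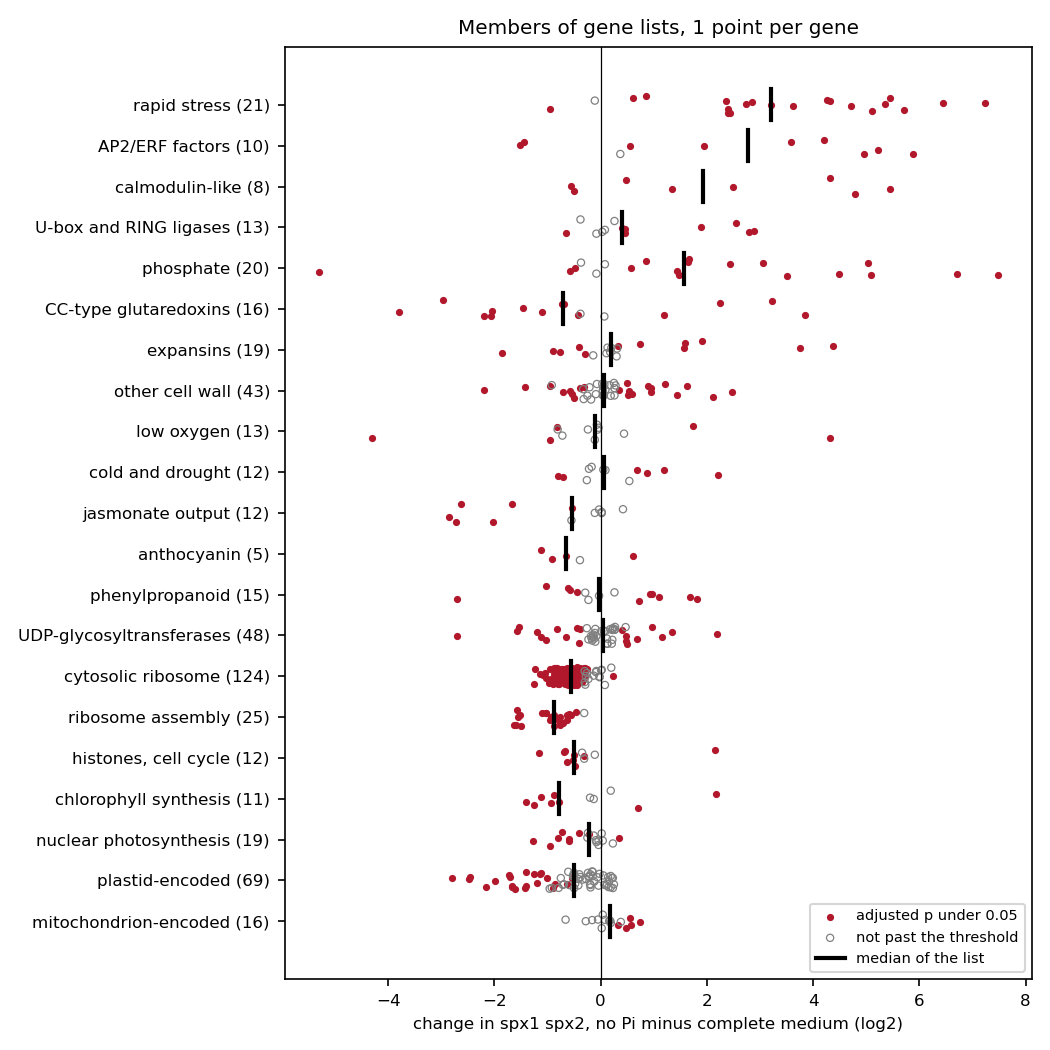
Change without Pi minus complete medium in the mutant (log2, horizontal axis) for the members of 21 gene lists, 1 point per gene, with the number measured in parentheses; filled points passed the test and the black bar is the list's median. Points of the rapid stress list lie far to the right, those of the cytosolic ribosome and ribosome assembly lists lie almost wholly to the left of 0, and those of the glutaredoxins fall on both sides.

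Genes for building ribosomes fell almost throughout the lists, by small amounts. Of 124 measured cytosolic ribosomal protein genes 108 fell and 1 rose, with a median of -0.57, against 26.3% of all probe sets that fell. The mean signal over the list was 10.49, 10.36 and 10.41 in mutant arrays without Pi and 11.09, 10.94 and 10.89 in mutant arrays in complete medium, without overlap. The largest falls were of AT1G80750 (RPL7A), AT3G57490 (RPS2D), AT4G26230 (RPL31B) and AT2G37600 (RPL36A), at -1.26 ± 0.15, -1.24 ± 0.15, -1.14 ± 0.11 and -1.08 ± 0.13. AT1G74270 was the one that passed as a rise (0.24 ± 0.10), and it did not pass with the replicate number as a block (limma adjusted p = 0.0658) or without any 1 of 5 of the 6 mutant arrays. Over all probe sets 28.1% fell in WT and the genotype difference passed as lower in the mutant for 7.74%. In WT 90 of the 124 fell, with a median of -0.43, and the genotype difference passed for 6, of which 5 were lower in the mutant. Those 5 became 2 without mutant complete replicate 1, 8 without replicate 3 of that group, 3 without WT no Pi replicate 2 or 3, and 13 without WT complete replicate 1. AT3G57490 was one of these, at 0.02 in WT (difference -1.26).

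Of 25 genes of ribosome assembly in the nucleolus 24 fell and none rose, with a median of -0.87. Over all probe sets 26.3% fell, and this list was added after the files were seen. AT5G66540 read 5.91, 5.62 and 6.03 without Pi and 7.64, 7.47 and 7.39 in complete medium (-1.64 ± 0.18). AT2G40430 fell by 1.60 ± 0.19, AT3G12860, a NOP56 homologue of the box C/D complex that guides RNA methylation, by 1.57 ± 0.21, and AT4G25730 by 1.56 ± 0.22. Fewer fell in WT, 16 of 25, with a median of -0.45, against 28.1% of all probe sets that fell in WT. The genotype difference passed for 4 of the 25, against 12.1% of all probe sets. Those 4 were AT3G10530, AT4G04940, AT3G15460 and AT1G13160, all lower in the mutant (difference -1.19, -1.12, -0.97 and -0.86). Without WT complete replicate 1 there were 7, and the difference of AT1G13160 did not pass in 9 of 12 fits that each left out 1 array (highest limma adjusted p = 0.126). NRPA1 and NRPA2, the large subunits of RNA polymerase I, which makes ribosomal RNA, fell by 0.73 ± 0.16 and 0.68 ± 0.13, and the exosome subunit RRP41 by 0.84 ± 0.10.

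Histone and cell cycle genes fell in 8 of 12 cases, and 1 rose, with a median of -0.49. The background over all probe sets was 26.3% falls and 17.7% rises. The H2B histone HTB2 read 8.52, 8.20 and 8.64 without Pi and 9.62, 9.48 and 9.73 in complete medium (-1.16 ± 0.14), the centromeric histone HTR12 fell by 0.69 ± 0.12 and the mitotic kinase AUR2 by 0.67 ± 0.12. The linker histone HIS1-3, which is known as inducible by drought, read 6.22, 5.86 and 6.07 without Pi and 3.91, 3.72 and 4.08 in complete medium (2.15 ± 0.16). In whole seedlings a smaller share of dividing cells and less RNA per dividing cell cannot be told apart. Of 9 tubulin and actin genes 3 fell and 1, TUB1, rose (0.84 ± 0.15), with 2 rises without mutant complete replicate 3. Those shares of 33.3% and 11.1% lie near the background.

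Among 11 chlorophyll synthesis genes there were 6 falls and 2 rises, with a median of -0.79. Their shares of 54.5% and 18.2% compare with 26.3% and 17.7% of all probe sets. HEME1 read 8.29, 8.73 and 8.76 without Pi and 10.06, 9.73 and 10.22 in complete medium (-1.41 ± 0.16), CHLI2, of the magnesium chelatase, fell by 1.25 ± 0.11 and HEME2 by 1.13 ± 0.11. HEMA2, a glutamyl-tRNA reductase gene that is known as expressed in roots, read 9.06, 9.78 and 9.49 without Pi and 7.31, 7.13 and 7.38 in complete medium (2.17 ± 0.17). Of 19 nuclear genes of photosynthesis 8 fell and 1 rose (42.1% and 5.26%), with a median of -0.22. The list mean was 10.31, 10.24 and 10.30 without Pi and 10.48, 10.62 and 10.65 in complete medium. Assembly factors made up most of the falls, with LPA19 at -1.27 ± 0.11, PAM68 at -0.96 ± 0.15 and LPA2 at -0.80 ± 0.14. Of the 8 members that encode antenna and photosystem proteins or Rubisco activase (RCA) none passed as a fall and LHCB4.2 passed as a rise (0.34 ± 0.10). LHCB4.2 did not pass without mutant complete replicate 1 (0.26, limma adjusted p = 0.0511), and none of the 8 passed as a rise with only the arrays of the groups compared in the fit, while 1 passed as a fall with the spike-in level as a block. In WT 14 of the 19 fell, and the genotype difference passed as higher in the mutant for 5. That became 3 without mutant complete replicate 1, mutant no Pi replicate 1, WT no Pi replicate 2 or 3 or WT complete replicate 2. Over all probe sets 28.1% fell in WT and the difference was higher for 4.41%.

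Plastid-encoded genes gave a less settled picture. Of 69 measured 22 fell and none rose, with a median of -0.50, and that share of 31.9% is near the 26.3% of all probe sets that fell. With the level of the spike-in as a block in the fit there were 36 falls and 1 rise. The list mean was 8.55, 9.61 and 9.53 in mutant arrays without Pi and 10.11, 9.31 and 10.20 in complete medium, and the lowest array of each group was the one with the low spike-in. The 25S ribosomal RNA control had the same low arrays, at 8.534, 11.183 and 11.161 without Pi and 11.604, 9.797 and 11.507 in complete medium. Without mutant no Pi replicate 1 the median was -0.04 and 11 fell, while without mutant complete replicate 2 it was -0.81 and 27 fell. Without mutant complete replicate 1 or 3, 13 and 11 fell. The part of the spike-in level in these values was not tested. The largest falls, ndhF at -2.79 ± 0.38, psaC at -2.47 ± 0.35 and petN at -2.45 ± 0.32, kept their groups apart, with ndhF at 4.00, 4.26 and 4.07 without Pi and 7.32, 6.75 and 6.61 in complete medium. Of 16 mitochondrion-encoded genes 5 rose and none fell, led by cox2 (0.74 ± 0.16). The 5 rises are 31.2%, against 17.7% of all probe sets. Without mutant no Pi replicate 2 or mutant complete replicate 1 or 2, 3 of the 16 rose.

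Flavonoid and phenylpropanoid genes differed between the genotypes. Of 5 anthocyanin genes 3 fell and 1 rose in the mutant, with a median of -0.66, and 5 rose in WT, with a median of 1.36. The genotype difference passed for 4 of the 5, lower in the mutant, against 7.74% of all probe sets. Over all probe sets 26.3% fell and 17.7% rose in the mutant, and 20.4% rose in WT. CHIL, a chalcone isomerase-like protein, read 9.24, 8.86 and 8.91 in the mutant without Pi and 10.50, 9.94 and 9.32 in the mutant in complete medium (-0.92 ± 0.19), and its change in WT was 1.36. UGT78D2, a flavonoid glucosyltransferase, had changes of -1.12 ± 0.18 in the mutant and 0.69 in WT. DFR, which makes the leucoanthocyanidin precursors, rose by 0.60 ± 0.18 in the mutant and 1.37 in WT, and its difference did not pass (-0.76). Without mutant no Pi replicate 1 its rise in the mutant did not pass (0.49, limma adjusted p = 0.0559), and no anthocyanin gene passed as a rise within the 15 arrays of usual spike-in signal. In CHIL, UGT78D2 and UGT78D1, replicate 1 of the mutant complete arrays was the highest of the 3. Without it 3 of the 5 genes still fell, with a list median of -0.38.

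Of 15 phenylpropanoid genes 6 rose and 5 fell in the mutant, with a median of -0.03, while 11 rose and none fell in WT, with a median of 1.20. The mutant shares of these genes were 40% and 33.3%, against 17.7% and 26.3% of all probe sets. The difference passed as lower in the mutant for 12, against 7.74% of all probe sets, and for 7 without mutant complete replicate 1. CCR2, a cinnamoyl-CoA reductase of lignin synthesis, read 8.66, 8.56 and 8.33 in the mutant without Pi and 6.93, 6.63 and 6.57 in the mutant in complete medium (1.81 ± 0.13). UGT84A1, a glucosyltransferase of hydroxycinnamates, read 4.97, 4.62 and 4.71 without Pi and 8.10, 7.46 and 6.89 in complete medium (-2.71 ± 0.21), and it did not pass in WT (0.28). Of 48 UDP-glycosyltransferases 9 rose and 11 fell in the mutant and 22 rose and 4 fell in WT, and the difference passed for 20, all lower in the mutant. The mutant shares of 18.8% and 22.9% are near the 17.7% and 26.3% of all probe sets, those in WT compare with 20.4% and 28.1%, and the 20 lower differences with 7.74%. Without mutant complete replicate 1 the difference passed for 15. UGT71C1 rose (2.19 ± 0.21), and UGT76E11 and UGT73B1 fell by 1.58 ± 0.21 and 1.54 ± 0.12.

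Among other specialised and detoxification genes, 4 of 13 glutathione transferases rose and 3 fell, led by GSTU28 (2.10 ± 0.12). Those shares were 30.8% and 23.1%, against 17.7% and 26.3% of all probe sets. GSTU25 had a change of -0.75 ± 0.23 in the mutant and 2.87 in WT, and its mutant complete arrays read 10.17, 9.29 and 8.69. Without replicate 1 of these the mutant change was -0.35 and did not pass (adjusted p = 0.0692). Of 22 cytochrome P450 genes, mostly of the CYP71B group, 4 rose and 7 fell (18.2% and 31.8%, near the 17.7% and 26.3% of all probe sets), with CYP71B22 (-1.74 ± 0.22), CYP71B24 (-1.54 ± 0.21) and CYP71B36 (-1.47 ± 0.18) lowest. Of 7 glucosinolate genes 2 rose and 1 fell (28.6% and 14.3%). The glucosinolate transporter GTR1 read 10.33, 11.07 and 10.72 without Pi and 9.16, 8.33 and 8.90 in complete medium (1.91 ± 0.26), BCAT4 of methionine chain elongation rose by 0.84 ± 0.10, and AOP1 fell by 0.72 ± 0.15. AT3G13610, the first committed enzyme of scopoletin-type coumarins that are secreted by roots, rose by 1.20 ± 0.12.

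Jasmonate output genes fell in 6 of 12 cases and none rose, with a median of -0.54. Over all probe sets 26.3% fell and 17.7% rose. The members that fell are mostly defensins, lectins and a hormone-inactivating enzyme rather than transcription factors: MYC3 and MYC4 did not pass, and MYC4 passed as a rise without mutant complete replicate 1 (0.63) or mutant no Pi replicate 1 (0.61). PDF1.2 read 5.13, 5.25 and 5.38 without Pi and 7.68, 7.83 and 8.15 in complete medium (-2.63 ± 0.12), against -0.96 in WT (difference -1.67, limma adjusted p = 2.23e-06). PDF1.4 fell by 1.66 ± 0.16. JRG21, which hydroxylates jasmonate and so inactivates it, read 5.74, 5.80 and 5.38 without Pi and 9.03, 8.41 and 7.67 in complete medium (-2.73 ± 0.31), whereas it rose by 1.89 in WT. The jacalin-like lectin JAL23 read 3.78, 3.58 and 3.43 without Pi and 6.56, 5.58 and 4.70 in complete medium (-2.02 ± 0.31). In JRG21 and JAL23 the 3 complete-medium arrays spread in the order seen for CHIL, with replicate 1 highest and replicate 3 lowest.

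Cold and drought genes, most of which code for hydrophilic protective proteins, differed between genotypes. Of 12 members 4 rose and 2 fell in the mutant, with a median of 0.07, while 9 rose and 1 fell in WT, with a median of 1.84, and the difference passed for 6, all lower in the mutant. Over all probe sets 17.7% rose and 26.3% fell in the mutant, and 20.4% and 28.1% in WT. The difference passed as lower for 7.74% of them. Without mutant complete replicate 3 there were 4 falls in the list in place of 2. LEA18 read 6.01, 6.38 and 5.56 without Pi and 3.91, 3.52 and 3.92 in complete medium (2.20 ± 0.21), much as in WT (1.94). COR15A, a chloroplast protein of freezing tolerance, read 10.57, 10.14 and 10.34 without Pi and 11.66, 11.08 and 10.40 in complete medium. Its arrays overlapped, and the change was -0.70 ± 0.27. It did not pass with the replicate number as a block (limma adjusted p = 0.0539), without mutant complete replicate 1 (-0.39, adjusted p = 0.261) or replicate 2 (-0.68, adjusted p = 0.0858), or without mutant no Pi replicate 2 (-0.59, adjusted p = 0.14) or 3 (-0.69, adjusted p = 0.0854), whereas in WT COR15A rose by 4.07. COR27, a cold-regulated gene that also acts on the circadian clock, fell by 0.80 ± 0.18 in the mutant and rose by 2.44 in WT.

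Low-oxygen genes were read through a list of 13 locus identifiers and a list of 2 other genes. Of the 13 members 2 rose and 3 fell in the mutant, with a median of -0.11, while 1 rose and 10 fell in WT, with a median of -2.44. The difference passed as higher in the mutant for 10, against 4.41% of all probe sets. The mutant shares of 15.4% and 23.1% lie near the 17.7% and 26.3% of all probe sets. In WT 20.4% of all probe sets rose and 28.1% fell. List means were 7.27 to 7.32 in the mutant without Pi, 6.75 to 8.02 in the mutant in complete medium, 7.17 to 7.39 in WT without Pi and 9.12 to 9.51 in WT in complete medium, so that WT in complete medium stood apart from the other 3 groups. In 11 of the 13 genes, replicate 1 was the lowest of the mutant complete arrays, a share that was not counted over all probe sets. Without that array 5 fell, with a median of -0.43, and without replicate 3 of that group the median was 0.04. In the list of 2 the genotype difference passed in opposite directions: PDC2, a pyruvate decarboxylase of fermentation, had changes of -0.27 ± 0.16 in the mutant, which did not pass, and 1.04 in WT (difference -1.31, limma adjusted p = 0.000741), and AT3G10040 had -0.38 ± 0.17, which did not pass, and -2.14 in WT (difference 1.76, limma adjusted p = 7.09e-05). CML38, which belongs to this list as well, and AT4G24110 rose (4.32 and 1.73), and AT4G39675, AT1G33055 and AT3G10020 fell.

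Cell wall genes moved in both directions. Of 19 expansins, proteins that loosen the wall, 7 rose and 5 fell, with a median of 0.20. Those shares were 36.8% and 26.3%, against 17.7% and 26.3% of all probe sets. The expansin-like genes had the largest rises. EXLA3 read 10.24, 10.22 and 10.00 without Pi and 5.90, 5.84 and 5.61 in complete medium (4.37 ± 0.15). EXLB1 read 11.77, 11.45 and 11.48 without Pi and 7.50, 8.02 and 7.91 in complete medium (3.76 ± 0.15), and EXPA16 rose by 1.91 ± 0.13. For EXLA2 the rise of 1.58 ± 0.11 was higher than the 0.77 of WT (difference 0.81, limma adjusted p = 0.00154), and for EXLA3 and EXLB1 the differences were 0.68 and 0.80, which did not pass in 8 and 1 of 12 fits that each left out 1 array (highest limma adjusted p = 0.11 and 0.0532). EXPA8 fell by 1.86 ± 0.20. EXPA7 and EXPA18, the expansins of root hairs, had changes of 0.31 ± 0.20 and 0.30 ± 0.22, which did not pass.

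Of 43 other wall genes 13 rose and 9 fell, with a median of 0.06. Those shares were 30.2% and 20.9%, against 17.7% and 26.3% of all probe sets. XTH19 and XTH18, xyloglucan endotransglucosylases, rose by 2.47 ± 0.12 and 2.11 ± 0.17, and CSLD2, a cellulose synthase-like protein of tip growth, by 1.63 ± 0.13. XTH32 read 7.96, 7.89 and 7.75 without Pi and 10.71, 10.03 and 9.46 in complete medium (-2.20 ± 0.20). Of 13 genes in a root hair list, which are mostly RALF-like peptides, 4 rose and 2 fell (4 without mutant no Pi replicate 1), led by RALFL22 (1.03 ± 0.11) and RALFL31 (-1.15 ± 0.22). With all arrays the shares of that list were 30.8% and 15.4%. Of 6 class III peroxidases 3 rose and 1 fell (50% and 16.7%). The genotype difference passed as lower in the mutant for 3 and higher for 1, against 7.74% and 4.41% of all probe sets. AT2G41480 and Prx37 rose by 1.68 ± 0.16 and 1.10 ± 0.16, and AT5G64120 fell (-0.61). The root-specific glucosidase PYK10, the marker of root tissue used here, read 12.64, 13.04 and 13.15 without Pi and 13.09, 12.74 and 12.95 in complete medium (0.02 ± 0.14), and did not pass. In WT its change was 0.79.

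Transport and nutrient genes of other elements also changed. AT5G52050, a MATE-type transporter gene, read 11.00, 11.73 and 11.29 without Pi and 8.06, 7.28 and 6.75 in complete medium (3.98 ± 0.25), and the organic cation transporter OCT4 rose by 1.82 ± 0.19. Of 10 nitrate and peptide transporter genes 4 rose and 3 fell, with none beyond 1.02. Those shares were 40% and 30%, against 17.7% and 26.3% of all probe sets. Of 5 genes of iron and zinc supply 3 rose and 1 fell (60% and 20%). In WT 1 rose and 2 fell, where 20.4% of all probe sets rose and 28.1% fell. The genotype difference passed as higher in the mutant for 4, against 4.41% of all probe sets. It passed for 2 within the 15 arrays of usual spike-in signal and for 2 with only the arrays of the groups compared. BHLH101, a factor that activates iron uptake genes, read 3.21, 3.26 and 3.10 without Pi and 5.28, 5.08 and 5.12 in complete medium (-1.97 ± 0.28), while its repressor-type relative PYE rose by 0.58 ± 0.16 and the zinc transporter ZIP6 by 0.85 ± 0.12. ATP sulfurylases APS3 and APS4 rose by 0.88 ± 0.13 and 0.62 ± 0.12.

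Of 19 sugar and starch genes 8 rose and 3 fell (42.1% and 15.8%, against 17.7% and 26.3% of all probe sets). The sucrose transporter SWEET14 read 7.77, 7.45 and 7.47 without Pi and 5.37, 5.79 and 4.94 in complete medium (2.20 ± 0.22). Its relative SWEET13 read 8.04, 7.89 and 8.11 without Pi and 6.54, 5.97 and 5.45 in complete medium (2.03 ± 0.18). The invertase-family gene cwINV6 rose by 1.64 ± 0.12 and SWEET2, a vacuolar glucose carrier, fell by 1.25 ± 0.12. APL3 and APL4, large subunits of the first enzyme of starch synthesis, rose by 0.71 ± 0.25 and 0.89 ± 0.20. The APL3 arrays overlapped, at 7.08, 7.88 and 7.89 without Pi and 7.47, 6.59 and 6.66 in complete medium, and the rise did not pass without mutant complete replicate 2 (adjusted p = 0.111) or replicate 3 (adjusted p = 0.0973), or without mutant no Pi replicate 2 (adjusted p = 0.108) or 3 (adjusted p = 0.104). In WT their rises were 2.41 and 1.93.

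Smaller groups gave few changes beyond 1. BZIP60 and BZIP28, factors of the unfolded protein response, rose by 1.51 ± 0.15 and 1.03 ± 0.12. The Hsp70 partners Fes1A, Fes1B and Fes1C and the chaperone Hsp70-2 fell by 1.07, 0.68, 0.43 and 0.74 on the log2 scale, and Fes1C did not pass without mutant complete replicate 3 (-0.29, limma adjusted p = 0.0894) or mutant no Pi replicate 2 (-0.38, limma adjusted p = 0.0545). Of 11 autophagy genes 3 rose, with ATG8H at 0.92 ± 0.14, and ATG8E fell by 0.99 ± 0.20. Of 16 auxin genes 2 rose and 2 fell, with 1 rise without mutant complete replicate 1 or 2. Both shares were 12.5%, against 17.7% rises and 26.3% falls over all probe sets. The auxin-conjugating enzyme GH3.1 rose by 1.81 ± 0.18 and its relative GH3.9 fell by 0.99 ± 0.14. ARR15, a primary response gene of cytokinin, read 4.80, 4.89 and 4.85 without Pi and 5.67, 5.97 and 6.36 in complete medium (-1.15 ± 0.17). The wall-sensing receptor kinases FER and THE1 rose by 0.64 ± 0.12 and 0.57 ± 0.15.

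Most of the mutant response was also seen in WT, on arrays of its own. In WT 11037 probe sets changed (48.5%), 4649 upward and 6388 downward. Of the 4026 rises in the mutant 3069 rose in WT too (76.2% of the mutant rises and 66% of the WT rises), and of the 5993 falls 4214 fell in WT (70.3% and 66%). Across the 22746 probe sets the changes of both genotypes correlated with r = 0.828, given as a description, since probe sets are not independent and all come from the same arrays. Among the 7283 probe sets called in the same direction the genotype difference passed for 947. The 15 leading rises all rose in WT, with the difference passing for 3: AT4G29780 (-0.69), AT3G01830 (-1.85) and AT1G08310 (-0.91). Of the 15 leading falls 13 fell in WT as well, and the difference passed for 8. Over all probe sets 20.4% rose and 28.1% fell in WT, and the difference passed for 12.1%. The leading genes were chosen on mutant arrays that also enter the difference, so nothing is read from its counts. In fits that each left out 1 of 12 arrays the difference did not pass for AT4G29780 in 7, for AT1G73600 in 4, for AT4G39675 in 9 and for PDF1.2b in 9, with highest limma adjusted p-values of 0.0973, 0.0997, 0.086 and 0.0868.

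**Figure D4:**
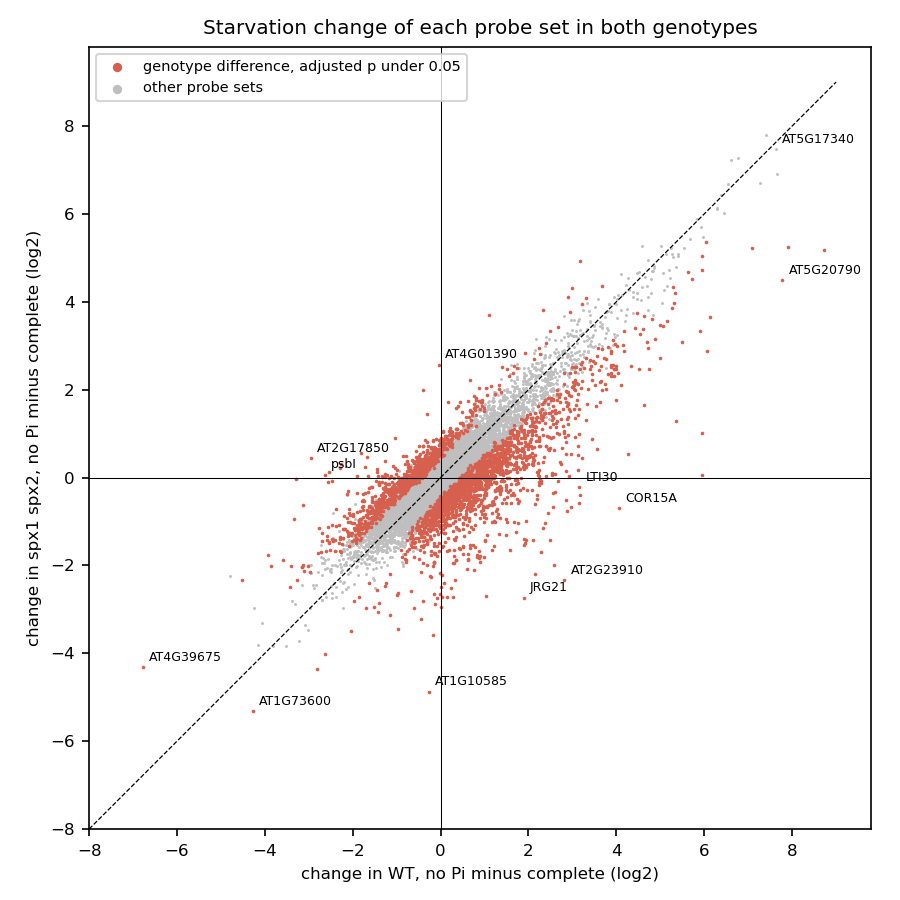
Change of each probe set in the mutant (vertical axis, log2) against its change in WT (horizontal axis, log2), with red points where the genotype difference passed the test and a dashed line of equal change. Most points follow the line; AT2G23910, JRG21 and AT1G10585 lie well below it and AT4G01390 and AT2G17850 above it.

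The genotype difference itself passed for 2762 probe sets (12.1%), higher in the mutant for 1002 (4.41%) and lower for 1760 (7.74%). This split depends on the scaling: with each array centred on its median the counts were 2094 higher and 1288 lower, and the median difference over all probe sets was 0.169 in place of 0.044. Mutant and WT differed at 4146 probe sets in complete medium (18.2%), with the mutant higher at 10.1% of all probe sets and lower at 8.15%. Without Pi they differed at 189 (0.831%), with the mutant higher at 0.339% and lower at 0.492%. The genotype difference of the response and the comparison in complete medium use the same complete-medium arrays, so they are not separate evidence.

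Opposite calls were found in 115 of 13350 named genes, of which 97 fell in the mutant and rose in WT and 18 rose in the mutant and fell in WT. Over all 22746 probe sets these calls numbered 218 and 37. AT2G23910, of a reductase family, read 7.03, 6.71 and 6.72 in the mutant without Pi and 9.61, 9.27 and 8.57 in the mutant in complete medium (-2.33 ± 0.18). In WT it read 7.02, 7.18 and 7.25 without Pi and 4.43, 4.35 and 4.22 in complete medium (2.82), a difference of -5.15 ± 0.25 (limma adjusted p = 1.11e-09). Its starved arrays thus lay together in both genotypes, and its complete-medium arrays lay on opposite sides of them. AT3G28220, a TRAF-like gene, had changes of -2.19 ± 0.29 in the mutant and 2.14 in WT. AT2G38240, a jasmonate-inactivating oxygenase like JRG21, had -1.70 ± 0.29 and 2.28, AT1G06000, a flavonol rhamnosyltransferase, -1.50 ± 0.21 and 1.93, and TBL26, of the wall acetylation family, -1.42 ± 0.33 and 2.50.

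Of the 97 genes that fell in the mutant and rose in WT, 90 were higher in the mutant than in WT in complete medium. Over all probe sets that share was 10.1%. Without Pi none of the 97 were higher and 6 were lower, against 0.339% and 0.492% of all probe sets. The genes were chosen on these same arrays, a choice that favours such counts, so nothing is read from them. The mutant complete arrays were unequal in these genes: replicate 1 was the highest of the 3 in 83 and replicate 3 the lowest in 69. How often that order holds over all probe sets was not counted, so it is not read as particular to these genes. Without mutant complete replicate 1, 68 of the 97 still passed as falls in the mutant, without replicate 2, 81, and without replicate 3, 92. TBL26 read 8.45, 7.86 and 6.58 in these arrays, and its change was -1.01 without replicate 1 (adjusted p = 0.0156). AT2G23910 fell by 2.10 without that array and JRG21 by 2.40. The source of the order among these arrays was not tested.

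Calls in the mutant of at least 2-fold that did not pass in WT, with the difference passing, were 61 falls and 11 rises among 13350 named genes. AT1G10585 had no WT array above 3.52, with 3.33, 3.04 and 2.81 without Pi and 3.14, 3.35 and 3.52 in complete medium, against the 8.73, 7.95 and 6.86 of the mutant in complete medium. AT1G07050 read 3.53, 3.44 and 3.37 in WT without Pi and 3.63, 3.84 and 3.40 in WT in complete medium. Other such falls were of UGT84A1, the BAHD acyltransferase gene AT5G47980 (-2.71 ± 0.32), the glycosyltransferase gene AT2G22590 (-2.50 ± 0.36) and the MATE transporter gene AT5G38030 (-2.23 ± 0.20). Of the 61 genes 58 were higher in the mutant in complete medium, against 10.1% of all probe sets. None of the 61 differed without Pi, against 0.831%. These genes too were chosen on the same arrays, so nothing is read from these counts. Mutant complete replicate 1 was the highest of its group in 52 of the 61, and the share over all probe sets was not counted.

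Over all probe sets the mutant was lower than WT at 8.15% in complete medium and higher at 0.339% without Pi. Of the 11 rises, chosen on these arrays, 7 were lower in the mutant than in WT in complete medium and 2 higher without Pi. AT4G01390, a TRAF-like gene, was one that did both. It read 7.72, 7.77 and 7.64 in the mutant without Pi and 5.25, 5.26 and 4.92 in the mutant in complete medium (2.57 ± 0.13), and 6.45, 6.64 and 6.45 in WT without Pi and 6.28, 6.65 and 6.73 in WT in complete medium (-0.04). The difference was 2.61 ± 0.18 (limma adjusted p = 3.03e-08), and no array of the mutant overlapped WT in either medium. AT4G24110, of the low-oxygen list, rose by 1.73 ± 0.15 and the carboxypeptidase-like gene scpl30 by 1.63 ± 0.22. The hydrolase gene AT2G32150, the glycine-rich protein gene AT5G28630 and the peroxidase gene AT4G33420 rose by 1.58 ± 0.25, 1.49 ± 0.21 and 1.11 ± 0.17, and their differences did not pass in 1 or more fits that left out an array.

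**Figure D5:**
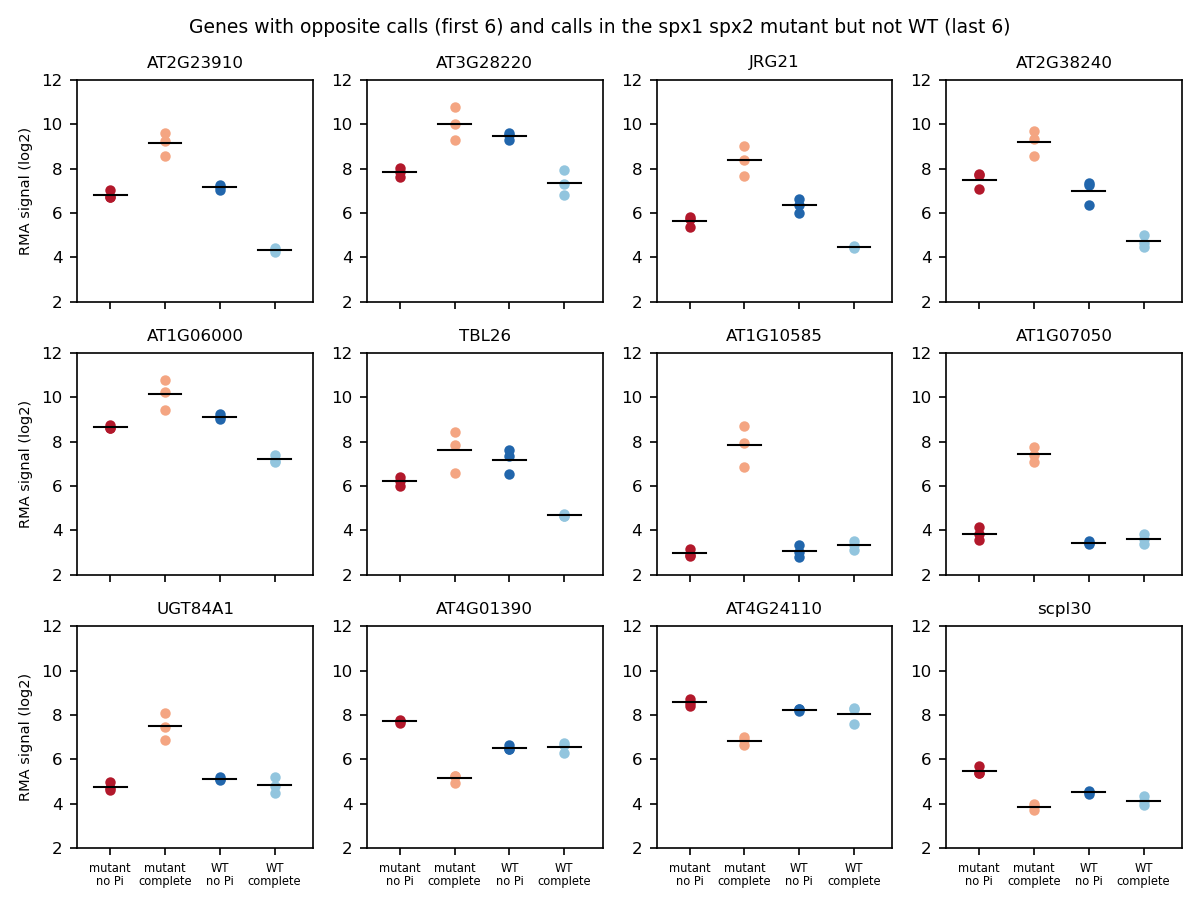
Signal (log2, vertical axis) of 12 genes in mutant seedlings without Pi and in complete medium and in WT seedlings without Pi and in complete medium, 1 point per array with the group mean as a bar. In the first 6 the mutant and WT stand on opposite sides of the starved levels in complete medium, AT1G10585, AT1G07050 and UGT84A1 are high only in the mutant in complete medium, and AT4G01390 is low there and highest in the mutant without Pi.

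Changes of at least 2-fold in WT that did not pass in the mutant, with the difference passing, were 115 rises and 53 falls among 13350 named genes. COR15B read 10.43, 10.12 and 10.21 in the mutant without Pi and 10.22, 9.89 and 9.02 in the mutant in complete medium, where replicate 3 lay below the others, whereas in WT it read 10.14, 10.09 and 10.00 without Pi and 5.47, 6.01 and 5.98 in complete medium. LTI30, a dehydrin, read 11.82, 11.79 and 11.86 without Pi and 12.61, 12.05 and 11.48 in complete medium in the mutant, and its change in WT was 3.16. AT2G34810, a berberine bridge enzyme-like gene, AT5G05600, a jasmonate oxygenase, AT4G29690, a nucleotide pyrophosphatase-like gene, and AT1G56300, a DnaJ-type cochaperone, had mutant changes of 0.03 to 0.35 and WT changes of 2.54 to 2.93. In complete medium 106 of the 115 genes were higher in the mutant than in WT, against 10.1% of all probe sets. The choice of these genes used the same arrays, so nothing is read from that count. The mutant complete arrays were unequal here too, with replicate 1 the highest of the 3 in 103 of the 115 and replicate 3 the lowest in 84. Shares of that order over all probe sets were not counted. Without replicate 1, 22 of the 115 passed in the mutant, among them COR15B (0.79, limma adjusted p = 0.00709) and AT4G29690 (0.68, limma adjusted p = 0.0111), and without replicate 3, 12 passed, among them LTI30 (-0.51, limma adjusted p = 0.00727).

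The 53 WT falls were lower in the mutant in complete medium in 48 cases, against 8.15% of all probe sets. Their choice used the same arrays, so nothing is read from that count. Replicate 1 was the lowest mutant complete array in 45 of the 53 genes and replicate 3 the highest in 43. Shares of this order over all probe sets were not counted. Without replicate 1, 16 of the 53 passed in the mutant. AT5G10040 read 3.80, 3.82 and 3.90 in the mutant without Pi and 3.31, 3.83 and 4.50 in the mutant in complete medium, against 4.16, 3.93 and 3.80 in WT without Pi and 7.62, 7.35 and 6.78 in WT in complete medium. AT2G17850, AT3G29970 and AT4G33560, all of the low-oxygen list, had mutant changes of 0.44 ± 0.33, -0.11 ± 0.22 and -0.07 ± 0.28 and WT changes of -2.95, -2.57 and -2.46. Without mutant complete replicate 3 AT2G17850 passed as a rise (0.96, limma adjusted p = 0.00636). The plastid genes psbI and psbK differed from these: without Pi they were higher in the mutant, at 10.52, 11.11 and 11.05 for psbI against 9.43, 8.32 and 8.41 in WT, and in complete medium the genotypes did not pass as different (-0.53 and -0.57).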

How the data were processed

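Total RNA of whole seedlings was labelled from 3 µg and hybridised to 18 one-colour Affymetrix arrays, 3 in each of 6 groups. The deposited values are log2 signals that the authors made with RMA, per the submitters' processing notes, with no version stated. The log base was inferred from their range of 2.289 to 14.346. Array data carry no read depth, and 3 arrays per group limit the precision.

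Of 22810 probe sets, 64 controls were left out. A model with 6 group means was fitted to the other 22746 in limma 3.58.1 (R 4.3.3), with 12 residual and 6.4 prior degrees of freedom, and p-values were adjusted over all probe sets by Benjamini-Hochberg at 0.05. The fit was tested on simulated data. One gene was named for 13513 probe sets, several for 503 and none for 8730, from the platform annotation and RefSeq.

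The members and gene lists were chosen with earlier results of these data known. Named genes are the 15 largest rises and falls without overlap of arrays, the 8 largest genotype differences each way, up to 4 called members per list with the largest change, 6 opposite calls, and 6 rises and 6 falls called in 1 genotype only. Of 61 lists, 55 had measured members. After the files were seen, 7 lists of locus identifiers were added and 5 symbols that had matched another gene were dropped. The 7 lists are those of Pi nutrition, rapid stress, AP2/ERF factors, CC-type glutaredoxins, cytosolic ribosome, ribosome assembly, and antenna and photosystem proteins. Counts for these 7 lists are descriptions and no test. Further list members named for their role were chosen after their values were seen. Alternatives covered scaling, filters, spike-in level, array weights, the replicate number as a block and leaving out arrays.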

Additional observations from a re-analysis of the deposited data

Results flagged for a closer look

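The test of the genotype difference (mutant change minus WT change, log2) passed for each of the genes below, which had been named by the size of that difference or by calls that differ between genotypes. Groups of 3 arrays are too small for the test of a single outlying array, which was not applied.

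A more positive change in the mutant was found for AT2G17850 (3.39), AT5G10040 (3.25), psbI (2.71), psbK (2.66), AT4G01390 (2.61), atpA (2.49), AT3G29970 (2.47), AT4G39675 (2.46) and AT4G33560 (2.40). Smaller positive differences were those of AT4G24110 (1.56), scpl30 (1.24), AT2G32150 (1.23), AT5G28630 (1.01) and AT4G33420 (0.77). The low-oxygen genes AT2G17850, AT5G10040, AT3G29970 and AT4G33560 had falls in WT with no call in the mutant.

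A more negative change in the mutant was found for AT2G23910 (-5.15), COR15A (-4.77), JRG21 (-4.62), AT1G10585 (-4.60), AT3G28220 (-4.33), AT2G38240 (-3.98), TBL26 (-3.92), COR15B (-3.72), AT1G06000 (-3.43), AT1G07050 (-3.40) and LTI30 (-3.39). Others were UGT84A1 (-3.00), AT2G34810 (-2.90), AT5G47980 (-2.86), AT2G22590 (-2.51), AT1G56300 (-2.44), AT5G05600 (-2.42), AT4G29690 (-2.36) and AT5G38030 (-2.00).

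The differences of atpA, AT4G39675, AT2G32150, AT5G28630 and AT4G33420 did not pass in 8, 9, 6, 7 and 8 of 12 fits that each left out 1 array, with highest adjusted p-values in limma of 0.0903, 0.086, 0.0798, 0.0982 and 0.112.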

How the results depend on the processing

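The count of calls in the mutant was 10019, and 8827 to 9482 with 1 array left out (3513 to 3991 rises, 5314 to 5792 falls). It was 9678 with each array centred on its median (4721 rises, 4957 falls). In the 15 arrays of usual spike-in signal it was 9863, and with only the arrays of the groups compared 8482. With 1 probe set per named gene, which tests fewer probe sets, 5418 passed in the mutant (2140 rises, 3278 falls, 1381 of at least 2-fold), and the genotype difference passed for 1382 (560 positive, 822 negative, 416 of at least 2-fold). The count for the genotype difference was less settled. Its 2762 calls (1002 positive) became 2094 positive with centred arrays, 622 positive in the 15 arrays, and 1580 (414 positive, 1166 negative) with only the arrays compared. Leaving out 1 array gave 1687 to 3555 calls, 467 to 1501 positive, 1220 to 2054 negative and 688 to 1116 of at least 2-fold. The lowest, 1687 and 467, came without mutant complete replicate 1, and the highest without mutant complete replicate 3. Positive calls were also few without WT no Pi replicate 2 (622) or 3 (640) and without mutant no Pi replicate 1 (651). The cause was not tested. With the replicate block, 9764 passed in the mutant and 2486 for the difference. Mutant arrays of the same number had correlated deviations of -0.237, -0.292 and 0.183. These values show no pairing by number and cannot exclude it, since arrays of different numbers shared a deviation. Arrays with the low spike-in deviated together: mutant no Pi replicate 1 correlated at 0.507 with mutant complete replicate 2, and the second of these at 0.598 with WT complete replicate 3. With the low spike-in as a block 11143 passed in the mutant and 3279 for the difference. With each array centred the calls of the genotype difference were mostly positive (2094 positive, 1288 negative), and without centring mostly negative (1002 positive, 1760 negative), so the direction of the majority turned. Signal near background makes the changes of dim genes lower bounds.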
